A study of Mus musculus with 4 samples.

Results

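The regions described here are isolated Ptf1a peaks: sites where Ptf1a was found on the mouse genome with no other Ptf1a peak and no Myc peak within 50 kb, measured from edge to edge. The rule was applied to the autosomes of both deposited peak lists and used positions alone, so members were chosen by their distance to other called peaks and not by score. It found 2437 isolated peaks among 17423 autosomal Ptf1a peaks, a share of 14.0% (95% Wilson interval 13.5 to 14.5%, which covers counting error only). The full lists held 17632 Ptf1a and 5464 Myc peaks on all chromosomes, 23096 in all.

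Both lists came from chromatin immunoprecipitation with sequencing (ChIP-seq), which maps where a protein sits on DNA, in pancreas of Ela1-myc mice at 8 weeks of age. These mice carry c-Myc driven by the elastase 1 promoter, which is active in acinar cells, and this holds for every group, since the series has no mice without the transgene. The Ptf1a list came from 1 mouse and the Myc list from a pool of 3 mice, so each factor had 1 library and no value below has a replicate error. An input library from 5 mice, the Ptf1a mouse among them, and another from the mice of the Myc pool were sequenced as references. The inputs were not analysed here.

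Ptf1a, a transcription factor of the basic helix-loop-helix type, keeps acinar cells of the pancreas in their secretory state. It works in the PTF1 complex together with an E protein and Rbpjl or Rbpj, and the complex reads an E-box and a nearby TC-box at genes for digestive enzymes and at genes of acinar regulators. c-Myc, of related structure, pairs with Max on E-boxes, often at promoters of genes for growth and ribosome production. Transcription factors of a cell type often bind in groups along the genome, so a site with no neighbour of either factor is the opposite end of that range. The genes beside the sites are not given here, because gene positions on mm9 were not at hand.

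Distance to the next peak was long for many members. The nearest peak of either list lay at a median of 99.1 kb (quartiles 65.7 and 182 kb), and the greatest distance was 4496 kb. Over all autosomal Ptf1a peaks, members included, the same median was 5.54 kb. The rule sets the lower end of the members' distances, so the gap between these medians is no result. Of the 2437 members, 1204 had no other peak within 100 kb, 411 had none within 250 kb and 42 had none within 1 Mb. The stretch free of other peaks around a member, both sides and the member itself, had a median of 416 kb over the 2428 members with a peak on each side.

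Myc sites were farther off than Ptf1a sites. The nearest Myc peak lay at a median of 243 kb from a member (quartiles 116 and 586 kb), against 107 kb for the nearest Ptf1a peak (quartiles 69.3 and 203 kb). The Myc list is much the shorter, and the nearest peak was a Ptf1a peak for 1932 members (79.3%, Wilson interval 77.6 to 80.8%), while Ptf1a peaks made up 76.3% of all autosomal peaks. Where a Ptf1a and a Myc peak overlap beside a member, their edges decide which counts as nearest. Autosomal Myc peaks were also wider, with a median of 834 bp against 516 bp for Ptf1a peaks. Nothing is read from these shares. In 305 members no Myc peak lay within 1 Mb, and in 109 none lay within 2 Mb.

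Isolated did not mean lying in an empty megabase. A member had a median of 18 peaks of either list within 1 Mb of its edges (quartiles 10 and 32), compared with 35 for the other autosomal Ptf1a peaks (quartiles 22 and 52). The most crowded member had 99. The rule leaves members no peak in the innermost 50 kb and gives every other Ptf1a peak at least 1, so the gap between these medians is no result.

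The peak score, the peak caller's value for each site, was lower among isolated sites. No header or label gives its scale, and the lowest score in the list was 50.01, so the score serves only to rank sites within the Ptf1a list. Members had a median score of 98.0 (quartiles 65.6 and 200.1), and the other 14986 autosomal Ptf1a peaks had 120 (quartiles 71.4 and 278). In all 1198 of 2437 members scored at least 100, or 49.2% (Wilson interval 47.2 to 51.1%), where the figure for all autosomal Ptf1a peaks was 56.7%. Scores of 500 or more were held by 8.45% of members and 13.6% of the others. At the low end, 18.1% of members and 14.0% of the others scored below 60. By rule members touch no Myc peak, while the others include 2349 peaks that overlap one. The 12637 others without such an overlap had a median score of 114. Of these, 56.1% scored at least 100, 11.5% at least 500 and 14.8% below 60, so the contrast with members was smaller. Position and score come from the same peak calls of 1 library, so these values are a description and carry no test. In whole pancreas a low score from a site bound in few cells and one from a site weakly bound in many cells cannot be told apart.

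Isolated peaks made up a smaller share toward the top of the list. When the autosomal Ptf1a peaks were cut into 10 equal parts by score, 18.6% of the lowest part were isolated (Wilson interval 16.9 to 20.5%). It stood between 15.1 and 15.8% from the second to the fifth part, then was 13.7% in the sixth, 11.1% in the ninth and 8.89% in the highest (7.65 to 10.3%). Of the 12 autosomal peaks tied at a score of 3100, 0 were isolated, which allows a share of up to 25% (3 counts of the total). Among the 1000 highest scores, 997 were autosomal and 69 of these were isolated, or 6.92% (5.51 to 8.67%).

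**Figure D1:**
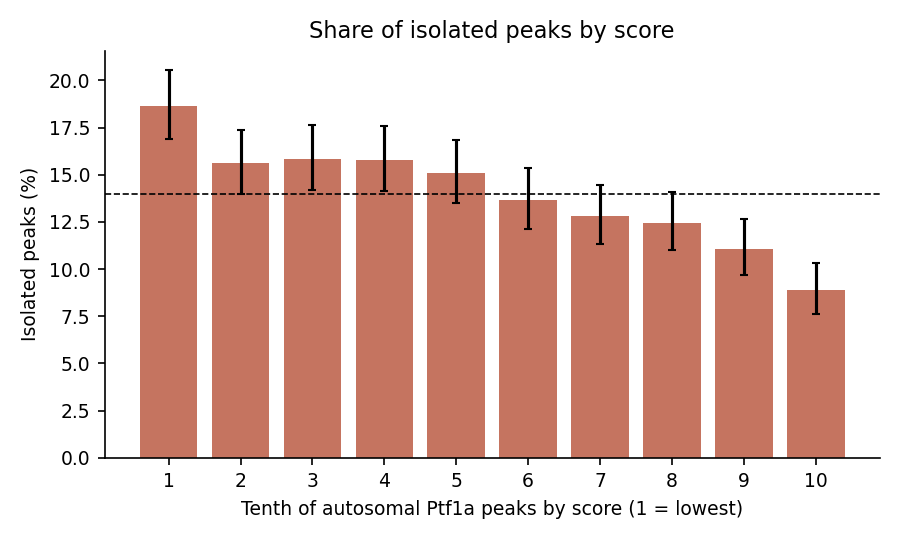
Percentage of autosomal Ptf1a peaks that were isolated (y axis) in 10 equal parts of the list by score, from lowest to highest (x axis). Bars are shares, error bars 95% Wilson intervals, and the dashed line is the share over the list, 14.0%; the bars run from 18.6% in the lowest part to 8.89% in the highest.

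By class of distance, median scores were lower from each class to the next up to the limit and differed little among the 3 classes beyond it. Ptf1a peaks that overlapped a Myc peak had a median score of 177 (2349 peaks). Among peaks that overlapped none, the median was 118 with the nearest peak under 5 kb away, 114 from there to 12500 bp and 105 at 25 to 50 kb. Members had medians of 98.5 at 50 to 100 kb (1233 peaks), 99.2 at 100 to 250 kb (793 peaks) and 95.7 beyond 250 kb (411 peaks). Within the members score and distance showed almost no rank relation, with a Spearman's rho of -0.0015 across 2437 sites of 1 library. Most of the range of medians therefore lay between sites on a Myc peak and all the rest.

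**Figure D2:**
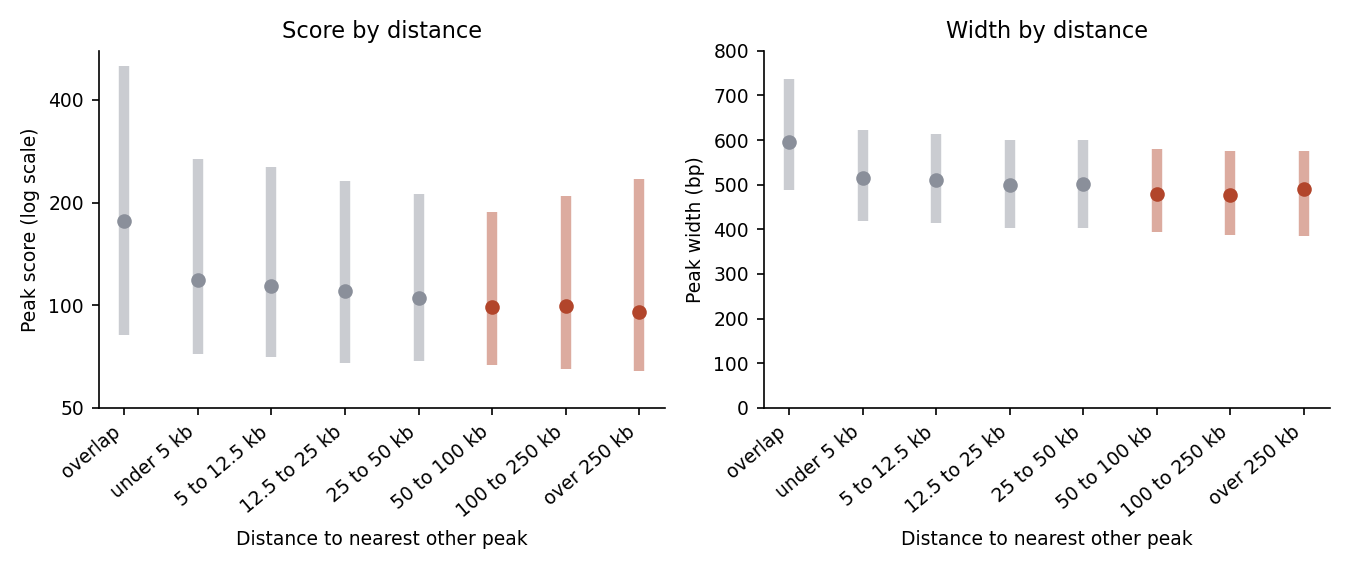
Score (left, log axis) and width in bp (right) of autosomal Ptf1a peaks in 8 classes of distance to the nearest other peak of either list. Points are medians and bars span the quartiles; the 3 classes of isolated peaks (red) have median scores of 95.7 to 99.2, while the class overlapping a Myc peak (left end) reaches 177.

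Peaks on both sides of the limit were compared by value only. The 428 members whose nearest peak lay 50 to 60 kb away had a median score of 102, and the 529 peaks at 40 to 50 kb, just outside the rule, had 111. The latter value is above the 105 of the whole class from 25 to 50 kb, so the order by class does not hold at finer steps. The members closest to the limit were chr4:15191001-15191378 (score 51.05, nearest peak 50.002 kb away), chr14:100681041-100681329 (score 65.75, 50.011 kb) and chr12:29975434-29975885 (score 104.73, 50.028 kb). Just beyond it on the other side lay chr11:53717664-53718051 (score 74.55, 49.993 kb), chr16:18411040-18411613 (score 215.03, 49.973 kb) and chr15:76208021-76208518 (score 358.35, 49.969 kb).

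Isolated sites were also narrower. Their median width was 481 bp (quartiles 389 and 578 bp), against 522 bp for the other autosomal Ptf1a peaks (quartiles 422 and 630 bp). Only 21 members were wider than 1 kb (0.862%), compared with 2.76% of the others. Among the others without a Myc overlap the median width was 510 bp, and 1.98% were wider than 1 kb. Width and score went together among the members (Spearman's rho 0.626 across 2437 sites), as they did among the other peaks (0.660).

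Peaks of like width differed less in score in all but the widest of 5 parts. In 5 equal parts of the list by width, the median score of members minus that of the others was -1.68, -3.59, -2.92 and -6.48 from the narrowest part to the fourth. In the widest part it was -59.9, where 304 members had a median of 358 and the others 418. Widths in that part ran from 652 to 6132 bp, so its peaks were not of like width. It held all peaks wider than 1 kb, 21 of its 304 members and 413 of its 3181 others. When peaks on a Myc peak were left out of the others, the difference in the widest part was -26.02. The share of isolated peaks went from 18.5% of the narrowest part to 8.72% of the widest. Members were thus lower in each of the 5 parts, by little outside the widest.

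To separate distance from Ptf1a and distance from Myc, the 3200 autosomal peaks with no other Ptf1a peak within 50 kb were divided by their Myc neighbours. The 2437 members were 76.2% of these. A further 455 had a Myc peak within 50 kb that they did not touch, and their median score was 97.2 (quartiles 67.2 and 198), close to that of the members. The remaining 308 overlapped a Myc peak and had a median score of 123 (quartiles 71.7 and 392) and a median width of 559.5 bp. Of these solitary sites on a Myc peak 21.1% scored 500 or more. The share on a Myc peak among sites with no Ptf1a neighbour was 9.63% (8.65 to 10.7%), and among all autosomal Ptf1a peaks it was 13.5% (13.0 to 14.0%).

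Chains were the other end of the range. The 5931 autosomal Ptf1a peaks in chains of 3 or more, each at most 12500 bp from the next, had a median score of 134 (quartiles 76.1 and 325) and a median width of 535 bp. In chains, the 4884 peaks that overlapped no Myc peak had a median score of 122 and a median width of 520 bp. A score of 100 or more was held by 58.9% of these 4884 (57.5 to 60.3%), compared with 49.2% of the isolated peaks, which by rule also touch no Myc peak.

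**Figure D3:**
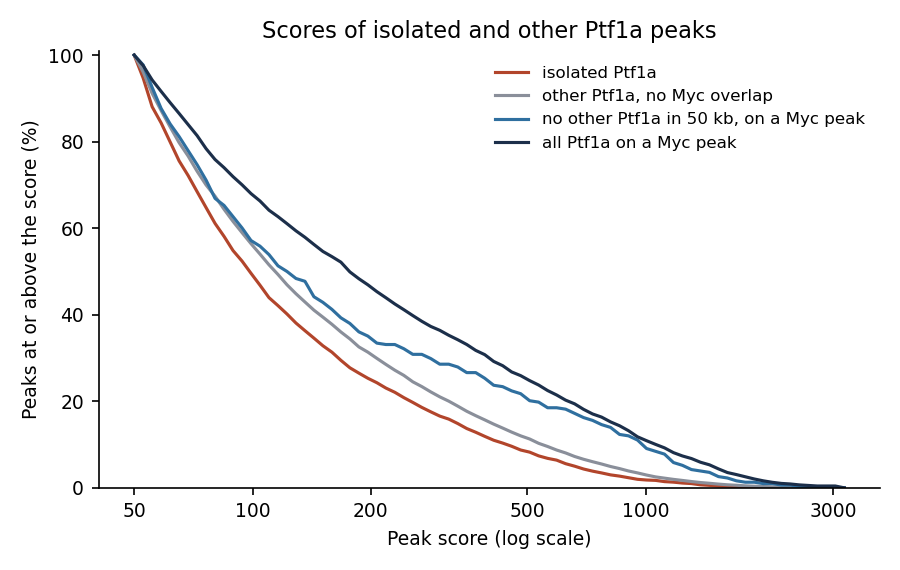
Percentage of peaks at or above a score (y axis) against the score (x axis, log scale) for isolated Ptf1a peaks, other autosomal Ptf1a peaks without a Myc overlap, Ptf1a peaks on a Myc peak with no other Ptf1a peak within 50 kb, and all autosomal Ptf1a peaks on a Myc peak. At a score of 100 the curves of isolated peaks and of all peaks on a Myc peak stand at 49.2% and 67.7%.

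High-scoring sites did occur in isolation. The highest-scoring member, chr1:154050174-154050955, had a score of 3182.12, second by value in the whole Ptf1a list. Whether the score of 3100 shared by 12 autosomal peaks is a ceiling is not stated. The order of this member against those 12 is therefore uncertain. The member was 782 bp wide, and its nearest peak lay 191 kb away on one side and 204 kb on the other. Its nearest Myc peak was 481 kb away, yet 30 other peaks lay within 1 Mb, so this site stood apart within an occupied region.

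The next member by score, chr12:63732802-63733682, was in a very different setting. Its score was 2574.35, rank 27 in the list, and its width was 881 bp. No other peak of either factor lay within 2.197 Mb of it, and on its left side the gap was 3.41 Mb. It was the only member among both the 10 highest scores and the 5 greatest distances. The 4 other most distant members had scores of 52.47 to 181.38.

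The other members among the 10 highest ranged in score from 2067.29 down to 1570.1, ranks 66 to 205. On chromosome 1, chr1:52052838-52054340 (score 2067.29) was 1503 bp wide and had 45 other peaks within 1 Mb. Also on that chromosome, chr1:104631890-104632481 (score 1636.57) had only 2 peaks within 1 Mb and no Myc peak nearer than 3.45 Mb. These high-scoring sites thus came from both crowded and nearly empty surroundings.

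On chromosome 17, chr17:4735045-4735806 (score 2046.43) had its nearest peak at 86.8 kb. On chromosome 13, chr13:13650982-13651788 (score 1890.79) had gaps of 993 kb and 330 kb on its sides and 6 peaks within 1 Mb. On chromosome 18, chr18:11316234-11316962 (score 1802.69) had its nearest peak at 160 kb. The 2 on chromosome 5 were chr5:20113376-20113914 (score 1770.34), at 539 bp the narrowest of the 10, and chr5:123404213-123404903 (score 1570.1), whose nearest peak, 58.7 kb away, was the only Myc peak in that position among the 10. The last, chr3:92375329-92376296 (score 1621.74), had a Ptf1a peak 61.4 kb to its right and nothing for 1.84 Mb to its left. Over the 10, the nearest Myc peak lay 58.7 to 3445 kb away (median 376 kb).

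Most of the 5 most distant members had low scores. The member farthest from any other peak was chr14:110942574-110942912, with gaps of 4.74 Mb and 4.496 Mb, and its score of 52.47 was close to the lowest in the list. Also on chromosome 14, chr14:87816311-87816559 (score 59.38, width 249 bp) stood at the edge of a 10.01 Mb stretch with no peak of either factor, and its nearest Myc peak was 8.01 Mb away. The other 2 were chr1:149190690-149191214 (score 181.38, nearest peak 2.36 Mb) and chr5:81856471-81856967 (score 58.77, nearest peak 2.33 Mb). Beyond 2 Mb there were 10 members in all, with a median score of 61.0, and 3 of them reached 100. At lower limits this did not hold throughout. The 42 members beyond 1 Mb had a median of 85.4 and the 138 beyond 500 kb had 104, against 98.0 for all members. How well reads map in such stretches was not tested.

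Of the 5 widest members, 1 was also among the 10 highest scores. The widest, chr15:74915762-74917556, measured 1795 bp and had a score of only 95.53. After chr1:52052838-52054340, named above, came chr3:35898667-35899937 (1271 bp, score 137.05), chr11:46027955-46029223 (1269 bp, score 676.6) and chr1:129998773-129999993 (1221 bp, score 210.84). The lowest scores among members were 50.02 at chr7:54256476-54256899, 50.04 at chr16:21693339-21693705 and 50.12 at chr1:189519713-189520056, the last with no peak within 1.92 Mb.

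Members were also counted by their place in the order of peaks along the chromosome. Counting peaks of both lists in order, 1562 members (64.1%) had another member as the next peak on at least one side, in 586 runs of 2 or more, and for 875 no adjacent peak was a member. The peak next to a member already has that side free for 50 kb, so the rule itself raises this share and nothing is read from it. The longest run held 11 members and lay at chr13:83547257-90980791, a stretch of 7434 kb with no other peak of either factor in it. Its scores were of moderate height, from 53.87 to 219.23 with a median of 131.83, and its spacings ran from 72.3 to 2039 kb. The run was chosen for its length, and its scores took no part in the choice.

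Chromosomes differed in how many of their Ptf1a peaks were isolated. The share was lowest on chromosome 11, with 139 of 1341 peaks (10.4%, Wilson interval 8.85 to 12.1%), and highest on chromosome 13, with 127 of 752 (16.9%, 14.4 to 19.7%). Chromosomes 15 and 19 were also low, at 10.8% and 11.0%, and chromosomes 1 and 14 high, at 16.8% and 16.7%. Across the 19 autosomes the share was lower where Ptf1a peaks were denser (Spearman's rho -0.867, Pearson's r -0.838). Both measures are computed from the chromosome's number of Ptf1a peaks. Isolated peaks per Mb went the other way and were higher where Ptf1a peaks were denser (Spearman's rho 0.484, Pearson's r 0.635, the same 19 chromosomes). They were spread more evenly than Ptf1a peaks as a whole, from 0.867 on chromosome 7 to 1.24 on chromosome 19. All Ptf1a peaks ran from 5.67 on chromosome 14 to 11.3 on chromosome 11. Where peaks are denser, fewer of them are likely to have 50 kb free, so the rule itself acts on the share and on this spread. Nothing is read from either.

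**Figure D4:**
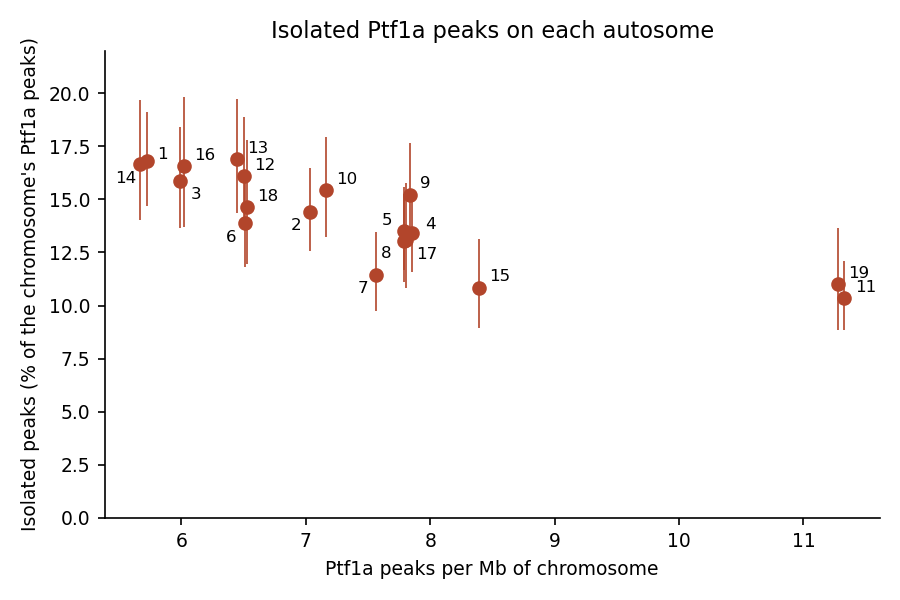
Share of each autosome's Ptf1a peaks that were isolated (y axis, %) against its Ptf1a peaks per Mb between the first and last peak of either list (x axis). Points are chromosomes, labelled by number, and bars are 95% Wilson intervals; chromosomes 11, 15 and 19 lie lowest, at 10.4 to 11.0%, and chromosome 13 highest, at 16.9%.

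The lower score of isolated peaks was seen on 18 of 19 autosomes. On those 18 the members' median score ranged from 85.3 on chromosome 9 to 108 on chromosome 2. Chromosome 16 was the exception, with a median of 143 for its 94 members against 112 for its other Ptf1a peaks. Its members were also the widest by chromosome, with a median of 520.5 bp, and 59.6% of them reached a score of 100. This chromosome was singled out after the values were seen.

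Myc peaks isolated by the same rule were fewer, 543 of 5417 autosomal Myc peaks (10.02%, 9.25 to 10.9%). Their median score was 71.7, and that of the other autosomal Myc peaks was 75.4. Their median width, 829 bp, was near the 835 bp of the others. The lists differ in length, mice and antibody and their depths are unknown, so the shares of the lists were not compared by a test, and scores are set side by side only within a list.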

How the data were processed

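Occupancy of Ptf1a and c-Myc was measured by ChIP-seq in mouse pancreas. The submitters' processing notes name MACS 1.4.1, BWA 0.5.9-r16, FastQC 0.9.4 and CASAVA 1.8, and build mm9. Not given in the sources used here are their roles and settings, the peak threshold and whether peaks were called against the inputs. The authors deposited 1 peak list per library, with position, name and a score per peak whose scale is not stated. No read counts are given, so the depth is unknown and completeness cannot be judged. Positions are counted from 1 on mm9.

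Distances between peaks were computed edge to edge on the same chromosome, and overlap meant at least 1 bp. The distance step was tested on simulated data against bedtools 2.31.1. Isolated peaks and lists were chosen with earlier results of these data known. Regions named are the 10 highest scores, 5 greatest distances, 5 widest, 3 lowest scores, the longest run, and 3 on each side of the limit. With 1 library per factor and peaks chosen from the calls themselves, no test was made, and shares carry 95% Wilson intervals. Alternatives changed the distance limit (25 or 100 kb), the measure of distance, the neighbours counted, the chromosomes and the score range. Genes, promoters and motifs were planned but not analysed here, since the gene and sequence tables at hand are on GRCm38.p6 and no positions were converted. Python 3.11.15, numpy 2.4.6, pandas 2.3.3, scipy 1.17.1 and matplotlib 3.10.9 were used.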

Additional observations from a re-analysis of the deposited data

How the results depend on the processing

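No paired analysis was possible because a factor is represented by 1 library, and for the same reason no replicate could be left out. Of 43 values under alternatives, 26 stayed within the 95% interval of the reported value (counts: within 1.5 times) and 17 moved. Only the 9 differences in median score have a sign that could reverse, and 0 of them did. The yardstick for counts is the looser one. With only Ptf1a neighbours the count, 3200, is among those that stayed, while its share, 18.4%, moved. With both lists limited to scores of 100 or more, the count of 2500 stayed and the share of 25.3% moved. For the difference in median score the interval was -25.31 to -18.34. It came from the interval of the members' median alone (94.6 to 101.57), with the median of the other peaks held fixed. The spread of the other peaks is therefore left out of it. The number of isolated peaks follows the limit: 4137 (23.7%) at 25 kb and 1204 (6.91%) at 100 kb. When only neighbours with a score of 100 or more counted, 4849 peaks (27.8%) were isolated, with a median score of 103, 51.6% at 100 or more and a median width of 494 bp. Counting only Ptf1a neighbours gave 18.4% and a median width of 491 bp. With both lists limited to scores of 100 or more, 25.3% were isolated, with a median score of 212, a width of 568 bp and a score difference from the other peaks of -26.5. The difference in median score was -21.9 as reported and below 0 under all 9 alternatives tried for it. Of these, 2 were chosen after seeing the data: it was -16.5 against other Ptf1a peaks without a Myc overlap, and -3.59 as the median over 5 equal parts by width. With the depth unknown, a neighbour that scored under the lists' lowest value would not be seen. Alternatives for motifs and promoters were not run.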

Other observations

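Chromosome X was outside the rule. Of its 199 Ptf1a peaks, 102 met the same distance limit (51.3%, Wilson interval 44.4 to 58.1%), with 1.24 Ptf1a peaks per Mb. Their median score was 114, compared with 92.5 for the other 97 peaks on X, the opposite order to that on 18 of the 19 autosomes; the difference was not tested. Their median width was 450 bp and their median distance to the nearest peak 183 kb. X had 45 Myc peaks.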
